A study of Schizosaccharomyces pombe with 4 samples.

Results

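The 4 genes described here are hxk2, tkt1, atd1 and eno101, which encode enzymes of carbon metabolism in the fission yeast Schizosaccharomyces pombe and lie beside peaks of the protein Rif1. They are 4 of 5053 protein-coding genes measured outside chromosome ends, centromeres and ribosomal DNA, and their windows hold 164 of the 41551 probes of the array. They were selected on the Rif1_Myc and Taz1 log2 ratios of these arrays, as genes beside a Rif1 peak, with Taz1 beside eno101 and not at the other 3. Peak heights and Taz1 levels over the windows are therefore given as descriptions.

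Taz1 and Rif1 were mapped by ChIP-chip, in which DNA bound to the precipitated protein is hybridised to a tiling array, here with 60-base probes every 300 bp on alternating strands. All cells grew in log phase in rich medium (YEA) and were fixed with paraformaldehyde. Taz1_wt was wild-type cells precipitated with an antibody raised against recombinant Taz1. Taz1_L593F was cells with the allele taz1l593F (mut5), precipitated with the same antibody. Taz1_GFP was taz1GFP cells precipitated with an anti-GFP antibody (ab290). Rif1_Myc was Rif1Myc cells precipitated with an anti-Myc antibody (c-Myc A14). Each group was 1 array, so no difference between groups could be tested, and no array of untagged cells with the anti-GFP or anti-Myc antibody was analysed here. Differences between arrays combine the protein, the tag, the antibody and the strain, which cannot be told apart.

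Values are log2 ratios of the immunoprecipitate (IP) to DNA of the whole-cell extract (WCE), with each array's median set to 0. A summit is the highest running median of 3 neighbouring probes in a window, and a region is the run of probes around it at or above 2-fold, a log2 ratio of 1. Errors are SDs over the probes of 1 array, not errors between replicates. The robust SD over all probes was 0.40 for Rif1_Myc, 0.24 for Taz1_wt, 0.28 for Taz1_GFP and 0.20 for Taz1_L593F. DNA was sheared to 500 to 1000 bp, so features closer than that are not resolved.

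Hxk2 is a hexokinase and acts at the entry of glucose into glycolysis, and Eno101 is an enolase of lower glycolysis. Tkt1 is a transketolase of the pentose phosphate pathway, and Atd1 belongs to the aldehyde dehydrogenases, which oxidise aldehydes to acids. Taz1 binds the double-stranded repeats of telomeres and brings Rif1 there, while Rif1 also binds along chromosome arms and delays replication origins through protein phosphatase 1.

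Sequence beside 3 of the 4 Rif1 summits held the letters GTGGGGG, the G-rich core of the published Rif1 consensus sequence (Rif1CS). The 5 matches are shown because they lie within 500 bp of a summit, each read in the direction of the motif with 11 bases on both sides and the match in capitals. The last line is the nearest match to the shorter GTGGGG at eno101, where no GTGGGGG was found.
hxk2, left match: tgaaaggcaatGTGGGGGgatagtgggca
hxk2, right match: ataaacccgatGTGGGGGgaaaggatgaa
tkt1: attcctcctatGTGGGGGagtagtaagaa
atd1, left match: aaagtcgcaaaGTGGGGGatttcgatcct
atd1, right match: ttttggtctatGTGGGGGattgactggat
eno101, GTGGGG: ctgagggaaggGTGGGGcatcaagtaac

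On assembly ASM294v3, the hxk2 sequences are chrI:2663747-2663775 and chrI:2663826-2663854 on the + strand, inside the annotated 3′ UTR of the neighbouring gene mug114. The tkt1 sequence is chrII:2585163-2585191 on the − strand, between the genes erv41 and tkt1. The atd1 sequences are chrI:4456937-4456965 and chrI:4457055-4457083 on the + strand, between atd1 and cbh1. The eno101 sequence is chrII:2200561-2200588 on the + strand, between cup1 and eno101. All 5 GTGGGGG matches also match the longer Rif1CS, which was searched after the matches had been seen and occurs 57 times on the 3 chromosomes. At hxk2 and at atd1 the matches form a pair in the same direction. The stretch that holds the atd1 pair, chrI:4456908-4457112 on the + strand, is shown whole with both matches in capitals.
atd1, both matches: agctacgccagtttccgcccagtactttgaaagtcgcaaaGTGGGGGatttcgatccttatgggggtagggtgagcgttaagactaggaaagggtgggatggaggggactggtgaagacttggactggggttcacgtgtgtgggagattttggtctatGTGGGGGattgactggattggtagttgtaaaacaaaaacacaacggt

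The build of the array is not named in the sources used here, so tiles were placed on ASM294v3 by the fit of WCE signal to GC content, with a constant shift per chromosome arm. The best shift of 121 of 122 windows of 100 kb lay within 300 bp of their arm's shift. Within the hxk2, tkt1 and atd1 windows alone it deviated by −200, 300 and 100 bp. In the eno101 window it deviated by 3050 bp, with r = 0.57 against 0.125 at the arm's shift over 40 probes, while the 30 kb on its left and right deviated by 150 and −150 bp. The 5 probes placed in the eno101 gene had a mean WCE of −1.25 ± 0.50 on the log2 scale (SD over probes) at a mean GC content of 51.8%. With the window's own shift the Rif1_Myc summit would lie 448 bp beyond the end of eno101, in a UTR of cut2, rather than upstream of eno101. Gene and motif positions given for eno101 use the arm's shift and are less certain than those of the other 3. The same holds for GC contents at eno101 and for values there after a fit on GC content.

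Rif1_Myc was high beside all 4 genes, and the peaks fell into tall ones at hxk2, tkt1 and atd1 and a lower one at eno101. In order of height, the Rif1_Myc summit had a log2 ratio of 2.91 at hxk2 (7.50-fold), 2.88 at atd1 (7.37-fold), 2.77 at tkt1 (6.83-fold) and 1.5 at eno101 (2.83-fold). The first 3 lie within the robust SD of the array of each other, and eno101 lies apart from them by more than that SD. This SD is a spread over all probes and not the error of a summit. Among the 142 Rif1_Myc regions outside chromosome ends and centromeres, the summits ranked 4 for hxk2, 5 for atd1, 6 for tkt1 and 40 for eno101. The other 138 regions had a median summit of 1.20, with a range of 1.0 to 3.11.

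**Figure D1:**
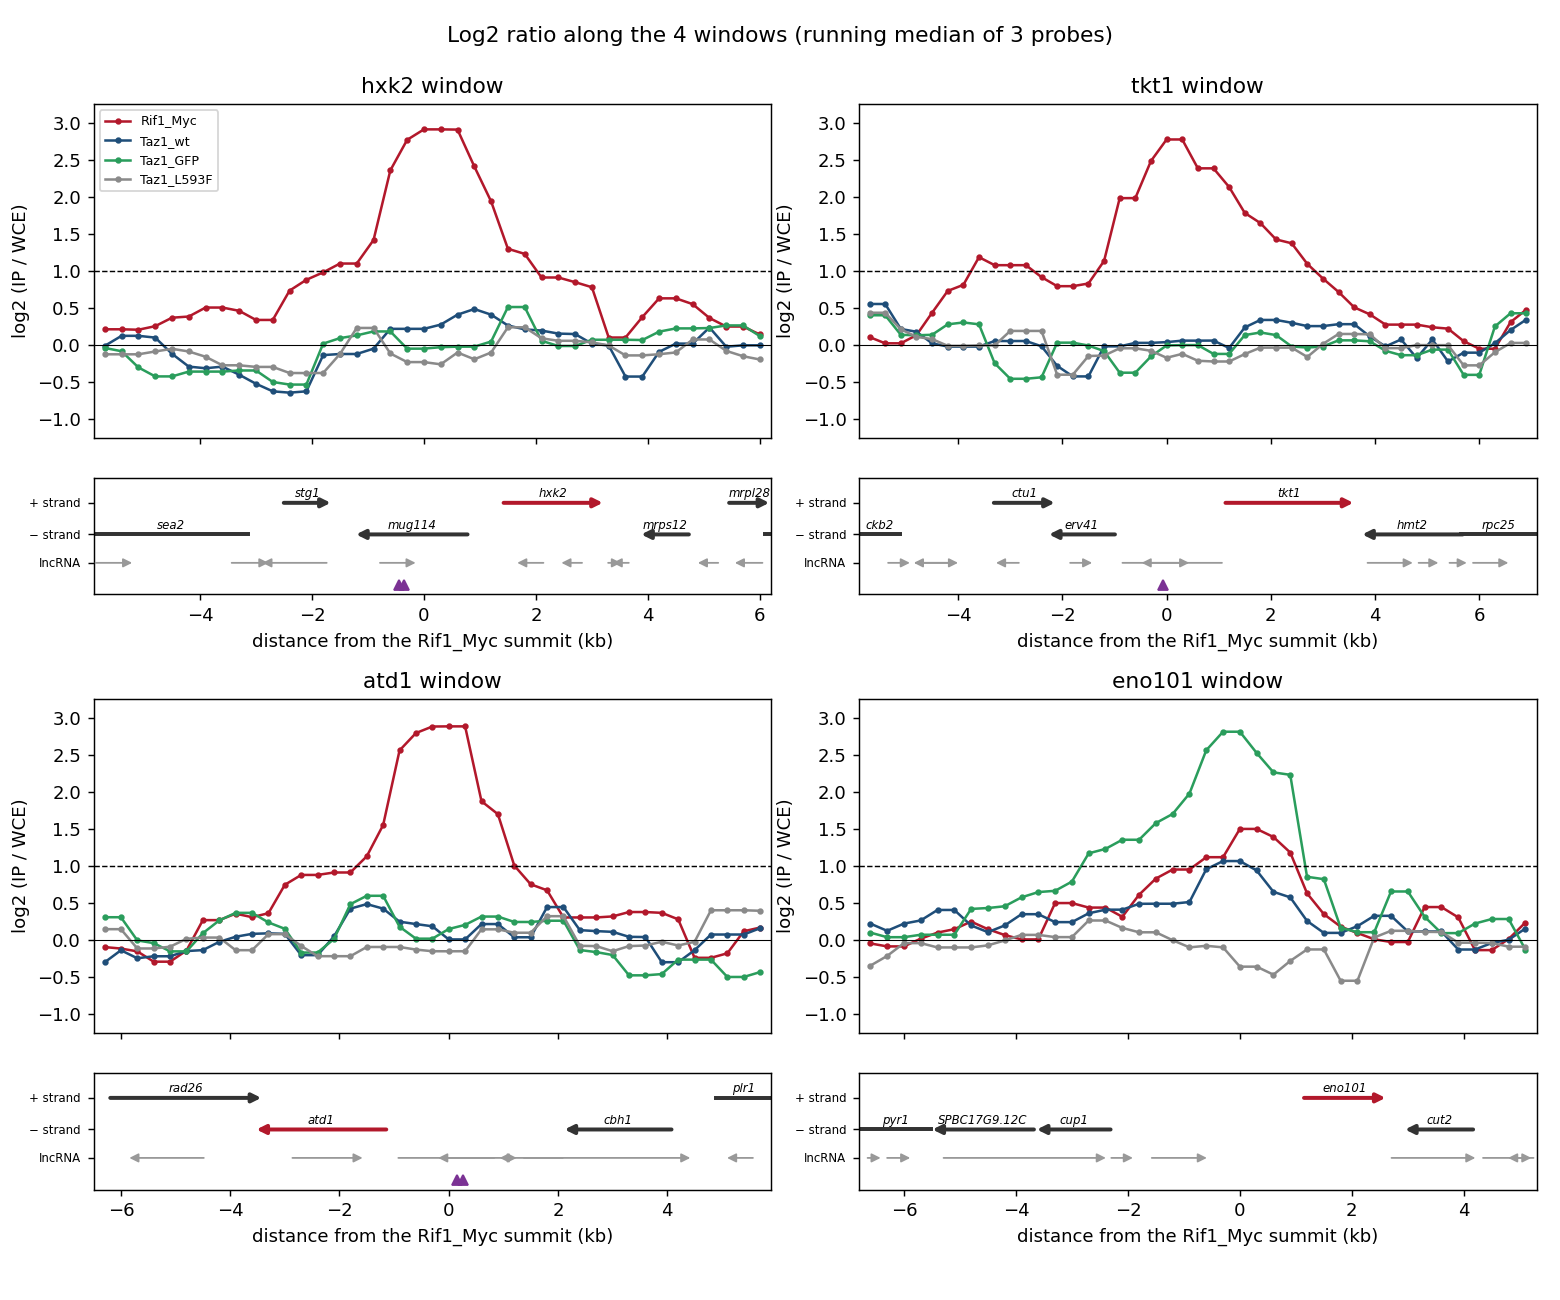
Log2 (IP / WCE), as the running median of 3 probes, of the 4 arrays against distance from the Rif1_Myc summit in kb, with genes (arrows, the member gene in red), long non-coding RNAs (grey) and GTGGGGG matches (triangles) under each window. The dashed line is 2-fold. Rif1_Myc stands alone above it at hxk2, tkt1 and atd1, and at eno101 Taz1_GFP reaches 2.81 against 1.5 for Rif1_Myc.

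At hxk2 the summit lay at array position 2664900 on chromosome I. Its region ran over 3300 bp and 12 probes, which had a mean log2 ratio of 2.05 ± 0.82 on Rif1_Myc. The same probes had means of 0.21 ± 0.23 on Taz1_wt, 0.16 ± 0.22 on Taz1_GFP and −0.03 ± 0.24 on Taz1_L593F. Rif1_Myc was higher than each Taz1 array at 12 of 12 probes. The region was called on Rif1_Myc in a window selected for a Rif1 peak without Taz1. That choice largely set this count and the like counts at tkt1 and atd1. At the summit probe itself the log2 ratio was 3.26 on Rif1_Myc, 0.16 on Taz1_wt, −0.05 on Taz1_GFP and −0.39 on Taz1_L593F. The highest running medians anywhere in the window were 0.49, 0.51 and 0.24 on the 3 Taz1 arrays, all below 2-fold.

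At tkt1 the summit lay at array position 2586900 on chromosome II, and its region covered 3900 bp and 14 probes. The region means were 1.97 ± 0.60 on Rif1_Myc, 0.09 ± 0.17 on Taz1_wt, −0.06 ± 0.19 on Taz1_GFP and −0.11 ± 0.10 on Taz1_L593F. Rif1_Myc was higher at 14 of 14 probes in each case. The peak was lopsided: it extended over the body of tkt1, whose 8 probes had a mean of 1.42 ± 0.54, and a low shoulder on the other side covered ctu1, a tRNA-modifying enzyme gene, at a mean of 1.09 over 4 probes. The shoulder brought the probes of this window with a running median over 2-fold to 18. It was not merged with the tkt1 region and counts as a separate region, with a summit of 1.19 and rank 77.

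At atd1 the summit lay at array position 4452300 on chromosome I, with a region of 2700 bp and 10 probes. On Rif1_Myc the region mean was 2.13 ± 0.76, while Taz1_wt had 0.24 ± 0.26, Taz1_GFP 0.28 ± 0.22 and Taz1_L593F −0.04 ± 0.19. Rif1_Myc was higher at 10 of 10 probes in each case. Taz1_wt and Taz1_GFP were highest 1500 bp from the Rif1_Myc summit, on the side of atd1, at 0.49 and 0.60, and so did not share its position.

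At eno101 the arrays stood in another order. The Rif1_Myc region covered 1500 bp and 6 probes, with means of 1.27 ± 0.23 on Rif1_Myc, 0.93 ± 0.30 on Taz1_wt, 2.60 ± 0.36 on Taz1_GFP and −0.30 ± 0.18 on Taz1_L593F. Taz1_GFP was higher than Rif1_Myc at 6 of 6 probes, and Rif1_Myc was higher than Taz1_wt at 5 of 6. All 6 probes were above 0 on Taz1_wt and all 6 were below 0 on Taz1_L593F. The latter array is of the mutant Taz1, precipitated with the same antibody. Its running median reached 2-fold at 0 of 40302 internal probes, so the lack of a 2-fold signal was not particular to this region. The mean of −0.30 stood against a median of −0.02 over the other 138 Rif1_Myc regions, some of which were lower. After a fit on GC content was removed, the Taz1_L593F mean over the eno101 region was −0.19. Taz1_wt and Taz1_GFP shared a summit 300 bp, 1 probe, to the left of that of Rif1_Myc, at 1.07 and 2.81. Above 2-fold, Taz1_GFP extended over 3600 bp and 13 probes and Taz1_wt over 300 bp and 2 probes. With a running median of 5 probes the Taz1_wt summit was 0.96, below 2-fold.

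**Figure D2:**
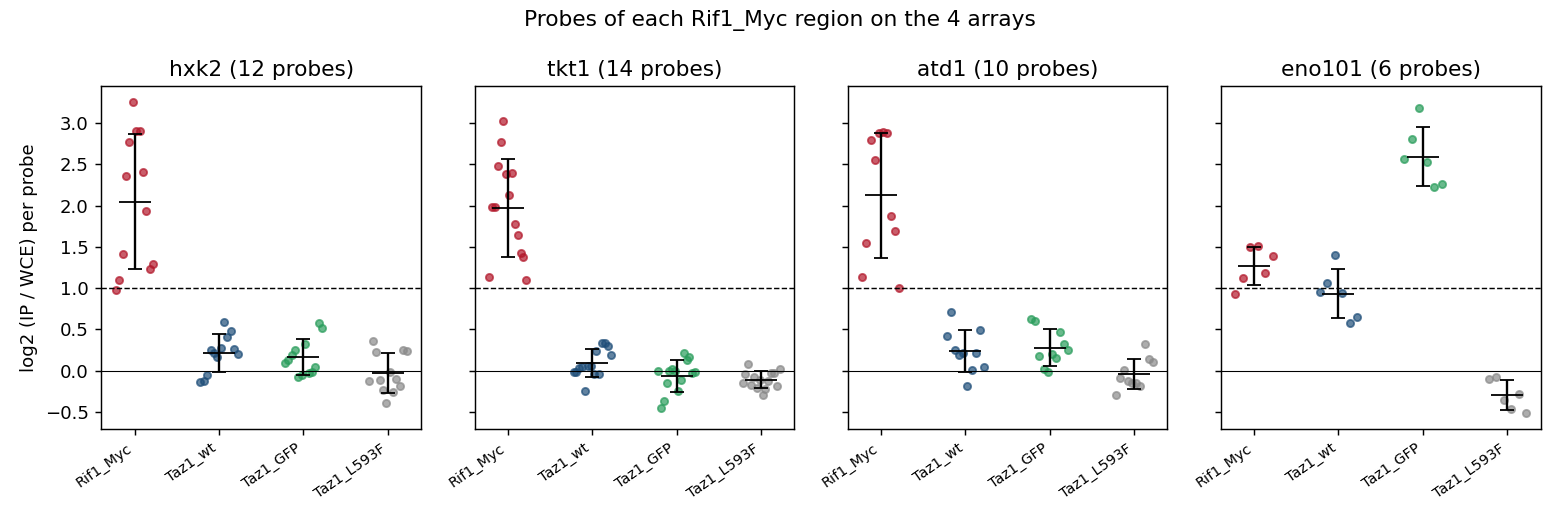
Log2 (IP / WCE) of each probe (points, in order along the chromosome) of the 4 Rif1_Myc regions on the 4 arrays, with the mean and SD over probes (black). The dashed line is 2-fold. At hxk2, tkt1 and atd1 the Rif1_Myc probes lie above those of the 3 Taz1 arrays, and at eno101 the Taz1_GFP probes are highest and the Taz1_L593F probes lie below 0.

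Across the 40 probes of the eno101 window, Rif1_Myc followed Taz1_GFP with r = 0.84 and Taz1_wt with r = 0.74. In the other windows r ran from −0.23 to 0.34 for Taz1_GFP and from −0.12 to 0.52 for Taz1_wt, over 40 to 43 probes. Neighbouring probes share sheared fragments, so these values describe the profiles and carry no test. By its Taz1_GFP mean the eno101 region ranked 1 of 142, against 90 for hxk2, 127 for tkt1 and 70 for atd1. Taz1_GFP averaged at least 2-fold over 8 of the 142 regions and exceeded Rif1_Myc in 4 of them.

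**Figure D3:**
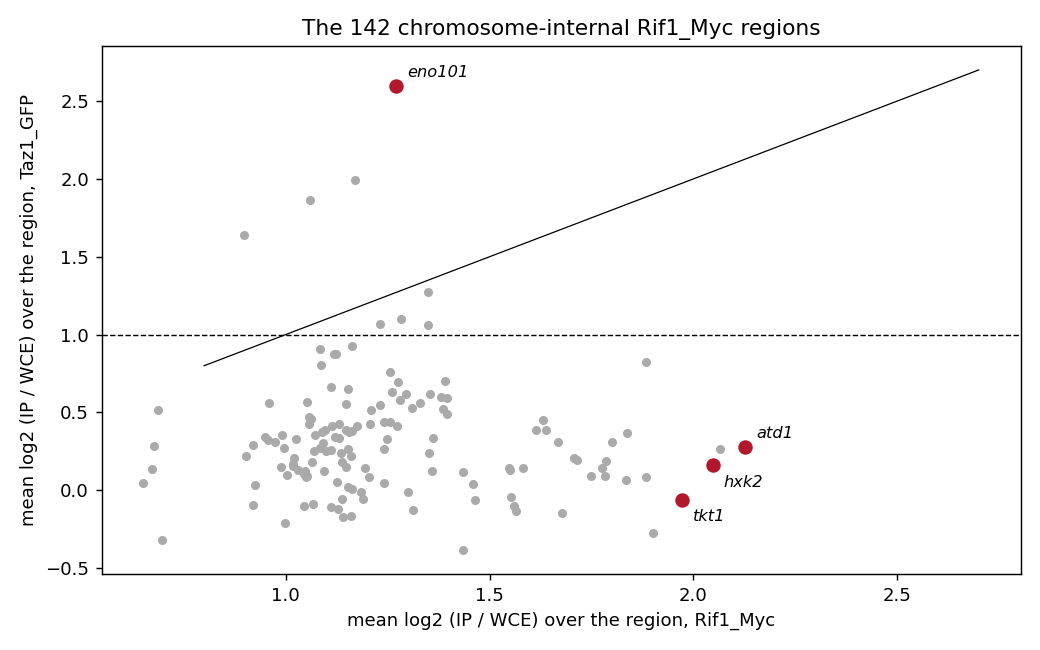
Mean log2 (IP / WCE) of Taz1_GFP against that of Rif1_Myc over each of the 142 chromosome-internal Rif1_Myc regions, with the 4 members in red, the diagonal of equal values (solid) and 2-fold on Taz1_GFP (dashed). The eno101 region is highest on Taz1_GFP at 2.60, and hxk2, tkt1 and atd1 lie at the high end of Rif1_Myc with Taz1_GFP from −0.06 to 0.28.

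By the means of the 4 arrays, the tall regions lay close to other strong Rif1 regions, and hxk2 and atd1 close to each other. The distance, taken as the Euclidean distance over 4 arrays, was 0.15 between hxk2 and atd1, and for both of them the region nearest to SPBC887.16 was as close or closer, at 0.15 and 0.11. For tkt1 the closest were the regions nearest to SPAC22F8.03C at 0.19, stb3 at 0.24 and rga10 at 0.27. The region nearest to SPAC22F8.03C was also the next in order for hxk2 at 0.20 and for atd1 at 0.32. No region came as close to eno101, whose nearest were those beside SPAC806.06C at 1.03, mae1 at 1.09 and ura4 at 1.18.

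With the shifts of the arms, all 4 summits lay upstream of the gene for which the window is named, and none lay in a coding sequence. The distance from the summit to the transcript start was 1423 bp at hxk2, 1130 bp at tkt1, 1143 bp at atd1 and 1146 bp at eno101. A summit 1000 to 1500 bp upstream of any protein-coding transcript start, a range set after these distances were seen, was found for 23 of the other 138 Rif1_Myc summits (16.7%), for 5 of the 17 others among the 20 highest (29.4%) and for 19.8% of all internal tiles. Of the other 138 summits, 85 lay in coding sequence, 16 in a UTR, 4 in an intron and 33 (23.9%) between genes. Of the 17 others among the 20 highest, 16 lay outside coding sequence, 11 of them between genes and 5 in a UTR. Of tiles, 57.2% lay in coding sequence and 21.3% between genes.

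At hxk2 the gene closest to the summit was not hxk2. The summit fell in the annotated 3′ UTR of mug114, a gene named for its rise in meiosis, whose 7 probes had a mean Rif1_Myc log2 ratio of 2.39 against 0.997 ± 0.21 over the 6 probes of hxk2. The pair is divergent with 643 bp between them. At the other 3 windows the summit fell between protein-coding genes. That of tkt1 also lay closer to the neighbour, 991 bp from erv41 against 1130 bp from tkt1. The erv41 and tkt1 genes are divergent with 2120 bp between them, and the erv41 gene, whose product acts in transport from the endoplasmic reticulum, had a mean of 0.87.

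The atd1 and cbh1 genes run in the same direction with 3262 bp between them. The means were 0.93 ± 0.36 over atd1 and 0.31 over cbh1, which encodes a relative of the centromere protein CENP-B. The cup1 and eno101 genes are divergent with 3454 bp between them. On Rif1_Myc their means were 0.41 and 0.26 ± 0.25, and on Taz1_GFP 0.93 and 0.37 ± 0.45, all below 2-fold. At these 3 windows each of these gene means lay below the mean of the Rif1_Myc region. Long non-coding RNAs are annotated at the tkt1 summit (SPNCRNA.402 and SPNCRNA.1532) and the atd1 summit (SPNCRNA.989 and SPNCRNA.4010), and none at the hxk2 and eno101 summits. They are annotated at 44.9% of the other Rif1_Myc summits and 48.0% of tiles.

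The motif share of the members can be read beside that of all windows of the same length. GTGGGGG, on either strand, was found within 500 bp of 3 of the 4 summits, against 1.90% of such windows around all internal tiles. Of the other 138 Rif1_Myc summits 36 (26.1%) had it, and of the 17 other summits among the 20 highest, 15 had it. The matches lay 439 and 360 bp left of the hxk2 summit, 73 bp left of the tkt1 summit and 151 and 269 bp right of the atd1 summit, all within the shear size. The match nearest to the eno101 summit was 15155 bp away. The window of 500 bp was set after matches were seen, and with 1000 bp the motif was again found at 3 of 4 summits, against 3.67% of windows.

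Rif1CS was found within 500 bp of the same 3 summits, against 0.397% of windows around all internal tiles, 23 of the other 138 summits (16.7%) and 13 of the 17 others among the 20 highest (76.5%). Of 48 internal tiles that hold Rif1CS, 30 (62.5%) had a Rif1_Myc running median over 2-fold, against 1.94% of all internal tiles. For GTGGGGG these were 50 of 228 tiles (21.9%). The 30 tiles and the 50 tiles include those of the members.

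The shorter GTGGGG, whose matches include every GTGGGGG, lay 525 bp right of the eno101 summit. It was found within 500 bp of 3 of the 4 summits, against 8.70% of such windows, and within 1000 bp of 4 of the 4, against 16.3%. Within 1000 bp it was also found at 64 of the other 138 Rif1_Myc summits (46.4%) and at 16 of the 17 others among the 20 highest. GGTTAC, the core of the telomere repeat that Taz1 binds, was found within 500 bp of 0 of the 4 summits, eno101 included, against 22.5% of all windows. Its nearest match to the eno101 summit lay 1236 bp away. None of these motifs occurred in the 300 bases before the transcript start of the 4 genes, where GTGGGGG was found in 0.997% of 5113 promoters, GTGGGG in 3.01% and GGTTAC in 6.98%.

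Probe strand, WCE and base composition were measured over the same regions. Probes of both strands showed each peak, with Rif1_Myc means of 2.14 and 1.95 at hxk2, 1.99 and 1.96 at tkt1, 2.28 and 1.98 at atd1, and 1.34 and 1.20 at eno101. The mean WCE signal of the 4 arrays, relative to the array median on the log2 scale, was −0.46 ± 0.68 at hxk2, 0.31 ± 0.47 at tkt1, −0.40 ± 1.1 at atd1 and 0.50 ± 0.47 at eno101. The IP signal of Rif1_Myc on that scale was 1.39, 2.22, 1.42 and 2.18 in the same order. The peaks were thus present in the IP channel itself. On Rif1_Myc the WCE signal, the denominator of the ratio, was −0.67 at hxk2, −0.71 at atd1, 0.24 at tkt1 and 0.90 at eno101. On the 3 Taz1 arrays it ran from −0.45 to −0.26 at hxk2 and from −0.36 to −0.19 at atd1. Their IP signals there ran from −0.47 to −0.09 and from −0.38 to 0.095. A level shared by both channels cancels in the ratio, and how far WCE moved the Rif1_Myc ratios was not tested. On Taz1_GFP the WCE signal at eno101 was 0.34, and the IP signal there was 2.94 against 2.18 on Rif1_Myc.

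GC content over the regions was 37.7% at hxk2, 41.7% at tkt1, 36.6% at atd1 and 46.7% at eno101, against 36.2 ± 5.31% over internal tiles. Over all internal tiles the Rif1_Myc log2 ratio rose with GC content with r = 0.29, and those of the 3 Taz1 arrays fell with it, with r from −0.23 to −0.15. With the arm's shift, which fitted the eno101 window poorly, the Rif1_Myc summit there was 1.04 after a fit on GC content was removed. With loess normalisation it was 0.84, below 2-fold, whereas the other 3 stayed at 2.11 or more. Of the 4 Rif1_Myc summits, that of eno101 alone fell below 2-fold under an alternative.

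The rest of carbon metabolism was read from 7 lists of genes for glucose uptake, glycolysis, the pentose phosphate pathway, fermentation, glycerol and trehalose, and the citrate cycle. Of 73 listed genes 70 were measured. A gene counted as called where the highest running median within it and 500 bp on both sides was at least 2-fold. On Rif1_Myc 3.82% of the 5053 genes were called, and 14 of the 70, the 4 members included. Of the 66 listed genes that are not members 10 (15.2%) were called, with a median of 0.53 against 0.26 over all genes. These 10 became 3 of 66 (4.55%) with loess against 2.24% of all genes, 2 (3.03%) with arrays scaled to one spread against 1.35%, and 1 (1.52%) at 3-fold against 1.01% or by means over genes against 1.11%. They became 14 (21.2%) with normexp against 4.39%, 15 (22.7%) with no running median against 6.85%, and 25 (37.9%) at 1.5-fold against 18.1%. The list was chosen with earlier results known, and the difference from all genes was not tested.

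**Figure D4:**
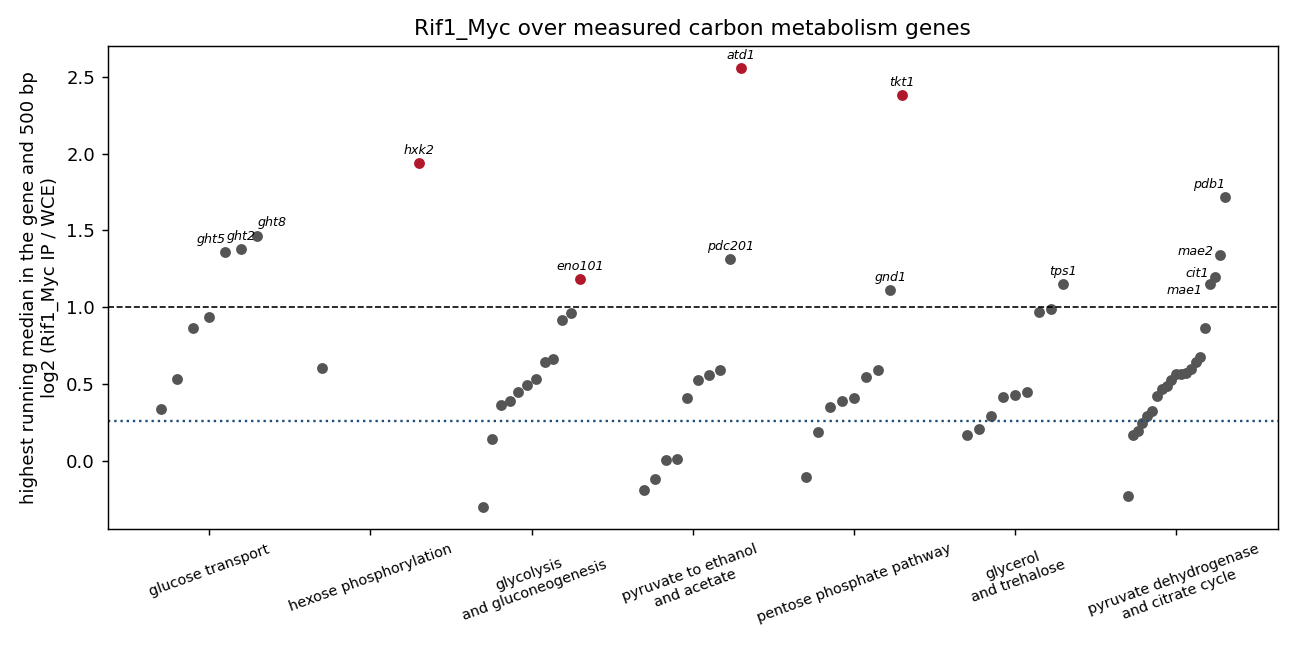
Highest running median of Rif1_Myc log2 (IP / WCE) in each measured carbon metabolism gene and 500 bp on both sides, by list, with the 4 members in red. The dashed line is 2-fold and the dotted line is the median of all 5053 genes, 0.26. The members atd1, tkt1 and hxk2 are highest, and 14 genes lie above 2-fold.

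Of 7 measured hexose transporter genes 3 were called: ght8 at 1.47, ght2 at 1.38 and ght5, which encodes the main glucose transporter, at 1.36. With loess, at 3-fold and by means over genes none of these 3 was called, and with scaling ght8 was. The other hexokinase gene, hxk1, was at 0.61 against 1.94 for hxk2. Of 12 glycolysis genes 1 was called, eno101 at 1.18, followed by pgk1 (phosphoglycerate kinase) at 0.96. The eno101 gene was not called with loess, with scaling, after the GC fit, at 3-fold, over the gene body alone or by the mean over the gene. The other enolase gene, eno102, was at −0.30, so the enrichment was not shared by the paralog.

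In the pentose phosphate pathway 2 of 9 were called, tkt1 at 2.38 and gnd1 (phosphogluconate dehydrogenase) at 1.11. Among genes from pyruvate to ethanol and acetate 2 of 10 were called, atd1 at 2.56 and pdc201 (pyruvate decarboxylase) at 1.32. The atd1 paralogs atd2 and atd3 were at 0.01 and 0.59. Of the glycerol and trehalose genes, tps1 (trehalose phosphate synthase) was called at 1.15, and gpd1 at 0.99 lay just under 2-fold.

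Of 21 genes of the pyruvate dehydrogenase complex and citrate cycle 4 were called on Rif1_Myc. They were pdb1 (a pyruvate dehydrogenase subunit) at 1.72, mae2 (malic enzyme) at 1.34, cit1 (citrate synthase) at 1.20 and mae1 (malate permease) at 1.15. The Taz1 arrays called few listed genes. On Taz1_wt mae1 at 1.66 and mae2 at 1.43 were called, 2 of 70 against 0.455% of all genes. On Taz1_GFP eno101 at 2.23, mae1 at 2.01, sdh2 (a succinate dehydrogenase subunit) at 1.78 and mae2 at 1.27 were called, 4 of 70 against 1.92%. On Taz1_L593F 0 of 70 were called, as were 0 of all 5053 genes.

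The Rif1 regions of the other 10 called genes mostly differed in form from the tall peaks of the members. For 9 of them the nearest Rif1_Myc summit lay inside the gene, between 151 and 1362 bp downstream of its transcript start, without GTGGGGG within 500 bp. Their regions held 2 to 10 probes, with summits from 1.11 to 1.72. The exception was pdc201, whose region had a summit of 2.41 (rank 13 of 142), 1511 bp upstream of the transcript start, between genes, with 1 GTGGGGG within 500 bp. The region had a mean of 1.84 on Rif1_Myc and means from −0.11 to 0.37 on the Taz1 arrays. The gene nearest to this summit was scn1. Calling used only signal within a gene and 500 bp on both sides. At gnd1 and cit1 a further Rif1_Myc region lay upstream of the gene, with summits of 2.26 (rank 15) and 1.20 (rank 71).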

How the data were processed

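The deposited scanner files hold, per the file headers, the processed intensity of both channels of each array, read by Agilent Feature Extraction 11.5.1.1, and a log10 ratio; per the labels, Cy5 was IP and Cy3 was WCE. The deposited series matrix holds uncentred log2 ratios, equal at every probe to those of the processed signals. Log2 of red over green processed signal was computed here, spots marked as outliers (2 to 74 an array) were left out, and each array was centred on its median, with no loess or quantile step. A running median of 3 probes was taken, and runs within 1000 bp were merged into regions. Internal excluded 50 kb at each end of chromosomes I and II, centromeres and the ribosomal DNA arms. Listed names were matched to RefSeq: 2 of 75 repeated a gene, 1 had no entry and 2 genes lay outside the internal tiles. Genes named are the members, their neighbours, the called or highest genes of each list, and the 3 most similar regions; ctu1, hxk1, pgk1, eno102, atd2, atd3, gpd1 and scn1 were named after their values were seen. Members, lists and motifs were chosen with earlier results of these data known. Peak calling was run on simulated triangular peaks in independent noise. Neighbouring probes of these arrays are not independent, so no error rate for them is drawn from it. With 1 array a group no test was made; its number limits the precision. Python 3.11.15, R 4.3.3 and limma 3.58.1 were used.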

Additional observations from a re-analysis of the deposited data

How the results depend on the processing

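No paired analysis was possible because each group held 1 array and the labels give no shared replicate numbers. The 12 alternatives were normexp, the series matrix values, loess, scaling to the mean MAD (median absolute deviation), outlier spots kept, a fit on GC content removed, no running median or 1 of 5 probes, thresholds of 1.5-fold and 3-fold, gene bodies alone, and means over genes. No summit or Taz1 mean changed sign from a value of 2-fold or more. Such a change would take a fall of at least 1 log2 unit, so this is a weak criterion. Of the Taz1 means over the 4 regions, only that of Taz1_GFP at eno101 was at 2-fold or more. The Rif1_Myc summits became 2.47 (hxk2), 2.11 (tkt1), 2.26 (atd1) and 0.84 (eno101) with loess, and 2.01, 1.92, 1.99 and 1.04 when scaled to the mean MAD. Normexp gave 3.38 at hxk2, and the GC fit gave 1.04 at eno101. The means over the eno101 region became 1.54 on Taz1_wt and 3.30 on Taz1_GFP with normexp. Taz1 means over the hxk2, tkt1 and atd1 regions moved by less than the robust SD of their array under normexp, loess, scaling and the GC fit. The series matrix values and the changes of running median could not move these means, and keeping outlier spots left them the same. Loess left no eno101 region above 2-fold, nor did the threshold of 3-fold, so no width is given there. Region widths moved to 6600 bp at tkt1 with normexp, to 1800 bp at hxk2 and 2700 bp at tkt1 with scaling, and at eno101 to 300 bp with scaling and 600 bp with the GC fit. With loess hxk2 was wider than tkt1, 3900 against 3600 bp. Of the 70 listed genes, with members selected for Rif1 among them, Rif1_Myc called 6 with loess (3 members, pdc201, pdb1 and mae1) against 2.24% of all genes, 5 with scaling (3 members) against 1.35%, 29 at 1.5-fold (4 members) against 18.1%, 4 at 3-fold (3 members) against 1.01% and 2 by means (tkt1 and pdb1) against 1.11%. On Taz1_wt the count was 4 at 1.5-fold against 3.96% of all genes, 1 at 3-fold against 0.139% and 0 by means against 0.119%. On Taz1_GFP it was 7 with normexp against 3.90%, 15 at 1.5-fold against 7.92%, 2 for gene bodies against 1.31% and 0 by means against 0.475%. The 15 at 1.5-fold held 2 members, eno101 and atd1, so the absence of Taz1_GFP at atd1 depends on the threshold. The cause of these shifts was not tested beyond what each setting changes. Signal was not well above background at 0 to 9 probes an array and none was saturated, so brightness limits few values, while 1 array a group leaves the spread between cultures unmeasured.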
